A study of Macaca mulatta with 43 samples.

Results

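Axon guidance genes encode the ligands and receptors that steer growing axons: Eph receptors and their ephrin ligands, semaphorins with their plexin and neuropilin receptors, Slits with Robo receptors, and netrins with DCC and UNC5 receptors. They were taken from the probe table of the Affymetrix Rhesus Macaque Genome Array by symbol alone, so no measured level decided which gene matched. The list itself was chosen with earlier results of these data known. In all, 63 genes of the 14132 with a probeset of a single gene symbol matched, on 104 probesets, and each gene was represented by its probeset of highest mean over the 43 arrays. Of these genes, 61 passed a filter that removed probesets under 3.5 on the log2 scale in at least 80% of arrays. The plexin PLXNC1 and the netrin receptor DCC did not pass, and their values are given with their families. All 63 gene IDs carried the same symbol in the RefSeq annotation of the rhesus genome.

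Expression was measured in medial PFC (Brodmann areas 24, 25 and 32, with RNA pooled within an animal) of 43 male rhesus macaques, all adults between 5 and 11 years of age, with 1 array per animal. The 32 ethanol-drinking animals were first brought to drink by schedule-induced polydipsia and then had 22 h of daily free choice between water and 4% (w/v) ethanol for 1 year, and the 11 controls received a calorically matched maltose dextran solution with water. Cohort 7a held 8 ethanol-drinking animals and 4 controls, cohort 7b held 5 and 2, cohort 5 held 8 and 5, and cohort 4 held 11 that drank ethanol and was without controls. Cohorts 7a and 7b were processed apart from cohorts 4 and 5 and with another RNA extraction kit, so ethanol and control are compared within a cohort, and levels of different genes are not compared with each other.

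Eph receptors are receptor tyrosine kinases that bind ephrins held on the surface of a neighboring cell. Secreted class 3 semaphorins signal through neuropilins paired with class A plexins, whereas membrane-bound semaphorins mostly bind plexins directly. Slits repel axons through Robo receptors, and netrins attract through DCC and repel through UNC5 receptors. Many of these genes stay on in the adult cortex, where Eph receptors, ephrins, semaphorins and plexins are known for shaping dendritic spines and synapses. No probe or promoter sequence was used here.

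In the fit over all cohorts, 4 plexins, the Eph receptors EPHA6 and EPHB6, the ephrin EFNA1 and 4 semaphorins were higher in ethanol-drinking animals. So were the ligand SLIT3 and the netrin receptors UNC5A and UNC5B. The netrins NTN1 and NTN4, the Eph receptor EPHA5, the semaphorin SEMA3C, the neuropilin NRP2 and UNC50 were lower. None of these 20 genes was called in cohort 5 alone. For 19 the difference in the called direction was larger in cohorts 7a and 7b than in cohort 5, where 16 had the called direction. With cohort in the model, 14 of the 61 genes were higher (23%, against 13.2% of the 13705 genes tested) and 6 were lower (9.84%, against 20% of all genes) at a Benjamini-Hochberg adjusted limma p under 0.05. The median ethanol minus control difference of the 61 genes was 0.04 log2 units, against -0.03 for all genes, and 41 of 61 differences were positive, against 40.4% of all genes. The share called higher was thus above that of all genes and the share called lower below it, which is a description of these arrays and not a test of the list. With each array centered on its median, the median of all genes moved to 0.01. Then 17 members were called higher and 4 lower, against 2512 and 1895 of the 13705 genes.

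Fitted alone, the 19 animals of cohorts 7a and 7b gave 21 members higher (34.4%, against 14.5% of all genes) and 5 lower (8.20%, against 25.2%), with a median difference of 0.08, against -0.06 for all genes. With arrays centered on their median, 24 were higher and 3 lower, against 2762 and 2303 of the 13705 genes. All 14 members called higher over all cohorts were also called higher here, as were 4 of the 6 called lower, in fits that share these animals. In cohort 5, no member was called, against 0% of the 13705 genes, and the lowest adjusted p of a member was 0.936. At an unadjusted limma p under 0.05, 4 members (6.56%) and 631 genes (4.6%) passed there. A test of the difference between both ethanol effects, cohorts 7a and 7b minus cohort 5, called 15 members higher (24.6%, against 9.63% of all genes) and 3 lower (4.92%, against 17.7%). With arrays centered, it called 22 and 1, against 1916 and 1494 of all genes.

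**Figure D1:**
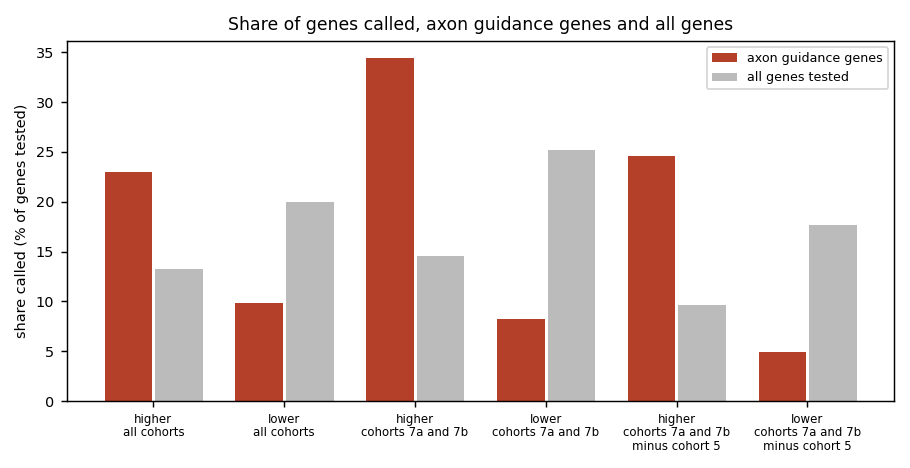
Share of genes called (% of genes tested, y axis) at an adjusted limma p under 0.05, for the 61 axon guidance genes (red) and all 13705 genes (gray), by comparison and direction (x axis). In cohorts 7a and 7b, 34.4% of the axon guidance genes were called higher, against 14.5% of all genes, and 8.20% lower, against 25.2%.

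Processing moved with treatment in the same cohorts, and so did RNA quality by its beta-actin measure, but not by GAPDH in cohort 7b. The array carries beta-actin probesets near the 3′ and 5′ ends of the transcript, and the difference between them was 1.26 ± 0.21 log2 units for ethanol and 0.82 ± 0.06 for controls of cohort 7a (SD, n = 8 and 4). In cohort 7b it was 1.10 ± 0.37 for ethanol and 0.78 ± 0.04 for controls (SD, n = 5 and 2), and in cohort 5 it was 4.54 ± 0.20 for ethanol and 4.50 ± 0.21 for controls (SD, n = 8 and 5). The same difference for GAPDH was 1.27 ± 0.13 for ethanol and 1.08 ± 0.08 for controls of cohort 7a. In cohort 7b it was the lower in ethanol, at 0.91 ± 0.28, against 1.05 ± 0.13 for controls (SD, same animals). In cohort 5 it was 2.31 ± 0.16 for ethanol and 2.23 ± 0.17 for controls. GAPDH was not used as a covariate. With the actin value as a covariate, 6 of 61 members were higher and 2 lower over all cohorts, against 1082 and 1173 of the 13705 genes. EPHA5, EPHA6, EPHB6, SEMA3B, SEMA3C, SEMA4B, SEMA4G, PLXND1, NRP2, SLIT3, NTN1 and UNC5B thereby lost their call over all cohorts. Cohorts 7a and 7b alone gave 15 and 2, against 1197 and 1719 genes. EPHB2, EPHB6, EFNA4, SEMA3B, SEMA3C, SEMA3D, SEMA4B, PLXND1 and NTN1 were the 9 members of cohorts 7a and 7b that were then no longer called. The part of RNA quality in the differences was not tested beyond this. The arrays were run in 8 batches, and batch 8 held 4 ethanol-drinking animals of cohorts 7a and 7b and no control. With batch in place of cohort, 9 members were higher and 5 lower over all cohorts, against 1279 and 1877 genes. Cohorts 7a and 7b alone gave 15 and 6, against 1538 and 2769 genes. With batch and the actin value together, PLXNA1 and PLXNA3 were called over all cohorts, and PLXNA1, PLXNA3, EPHA6, SLIT3 and UNC5A in cohorts 7a and 7b, all of them higher. Of all genes, 530 were higher and 503 lower over all cohorts with both terms, and 727 and 1175 in cohorts 7a and 7b. The share of members called higher over all cohorts was then not above that of all genes.

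Cohorts 7a and 7b held 6 controls in all. Of the 26 members called in cohorts 7a and 7b, 9 had control 37 and 10 had control 38 as the control farthest from the ethanol-drinking animals, and these are the 2 controls of cohort 7b. Without control 37 of cohort 7b, 13 members were higher in place of 21. The count over all genes in that fit is not given here, so the fall cannot be read as particular to the members. In the 12 animals of cohort 7a alone, 1116 of the 13705 genes were higher and 1647 lower, and among members 8 were higher and 2 were lower. Those 10 were PLXNA1, PLXNA3, EPHA6, EPHB6, EFNA1, EFNB2, SLIT3 and UNC5A, which were higher, and NTN4 and UNC50, which were lower. Of the 4 batches of these cohorts that held both groups, batches 5 and 7 held 1 control each, batch 4 had its controls from cohort 7a alone and ethanol-drinking animals from both cohorts, and batch 7 set 3 ethanol-drinking animals of cohort 7a against a control of cohort 7b. Differences within batches 4 and 7 therefore carry cohort as well as treatment. The median member difference within batches 4, 5, 6 and 7 was -0.01, 0.08, 0.11 and 0.21, against -0.07, -0.03, -0.05 and -0.07 for all genes.

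**Figure D2:**
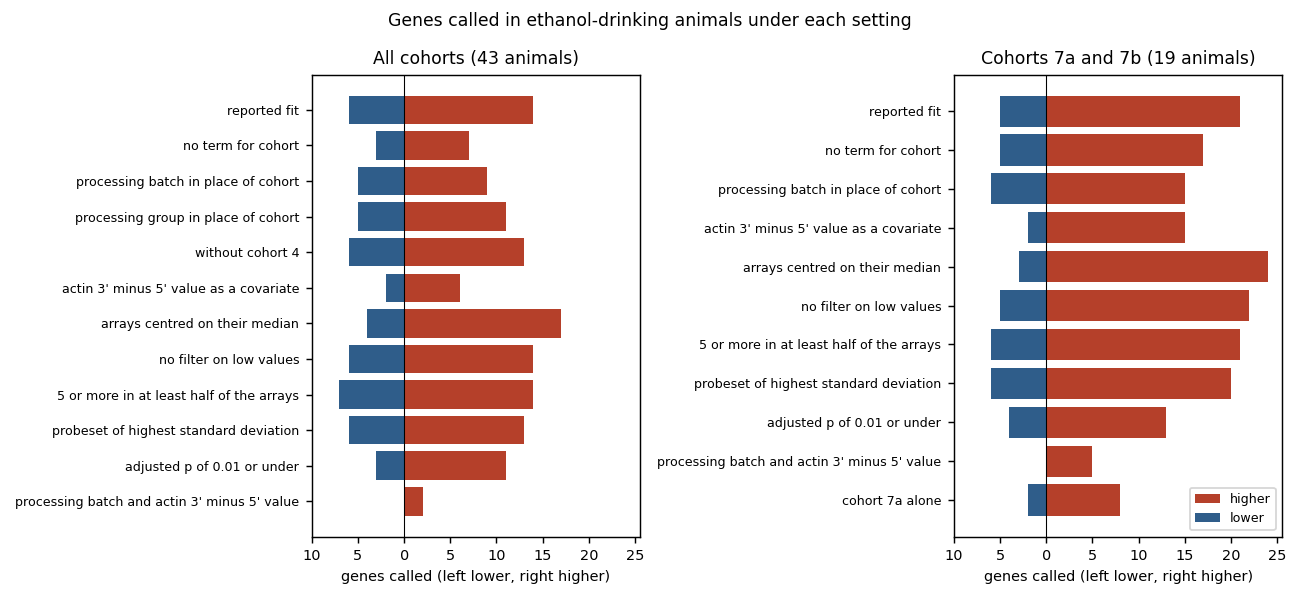
Number of axon guidance genes called (x axis, lower to the left of 0 and higher to the right) under each setting of the model (y axis), for all cohorts and for cohorts 7a and 7b. With cohort as the term there were 14 higher and 6 lower over all cohorts, and 21 and 5 in cohorts 7a and 7b, and batch with the actin value gave 2 and 0, and 5 and 0. Among the 13705 genes, batch with the actin value gave 530 and 503, and 727 and 1175.

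Among plexins, the signaling receptors of semaphorins, all 8 tested had a positive difference in cohorts 7a and 7b, with a median of 0.29 log2 units, and 5 were called higher. Of all genes, 38.5% had a positive difference there and 14.5% were called higher. PLXNA1, a partner of neuropilins, ranged over 9.67 to 9.92 (median 9.81) in the 13 ethanol-drinking animals of cohorts 7a and 7b, against 8.91 to 9.52 (median 9.33) in the 6 controls. The groups did not overlap. In cohort 5, the 8 ethanol-drinking animals ranged over 9.79 to 10.14 (median 9.93) and the controls had 9.83, 9.89, 9.95, 9.95 and 9.95. Ethanol-drinking animals were therefore higher by 0.54 in cohorts 7a and 7b (SE 0.07, 1.45-fold, adjusted limma p = 7.30e-06), and the difference in cohort 5 was 0.01 (95% interval -0.12 to 0.14). Within the 4 batches of cohorts 7a and 7b with both groups it was 0.28, 0.38, 0.78 and 0.64. PLXNA1 held its call over all cohorts (0.31, SE 0.06, adjusted limma p = 0.000156) with each array left out in turn. Of its 2 dimmer probesets, 1 was also called higher in cohorts 7a and 7b (0.44, adjusted limma p = 4.77e-05) and 1 was not (0.04, adjusted limma p = 0.795).

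PLXNA3, a second class A plexin, ranged over 7.59 to 8.42 (median 7.94) in ethanol-drinking animals of cohorts 7a and 7b, against 7.15 to 7.59 (median 7.41) in controls. Here too the groups did not overlap, although they met at 7.59 to 2 decimals. The difference was 0.54 (SE 0.09, adjusted limma p = 8.29e-05), and it was 0.38 in cohort 7a and 0.84 in cohort 7b, where the 5 ethanol-drinking animals lay between 8.07 and 8.42. In cohort 5 it was 0.01 (95% interval -0.11 to 0.13), and the dimmer PLXNA3 probeset was not called in cohorts 7a and 7b (0.18, adjusted limma p = 0.357). PLXNB1, the receptor of SEMA4D, had a difference of 0.37 (SE 0.08, adjusted limma p = 0.00123) in cohorts 7a and 7b, with ethanol-drinking animals at 7.70 to 8.22 and controls at 6.95 to 8.03, so the groups overlapped. PLXND1, a receptor for SEMA3E, was higher by 0.32 (SE 0.08, adjusted limma p = 0.00420), but its call over all cohorts (0.16, adjusted limma p = 0.0370) was lost in 5 of the 43 fits that left out 1 array. PLXNB2 was called in cohorts 7a and 7b (0.27, SE 0.10, adjusted limma p = 0.0425) and not over all cohorts (0.10, SE 0.07, adjusted limma p = 0.302). Its means differed by 0.04 in cohort 7a and 0.71 in cohort 7b, the call held in 8 of 19 fits that left out 1 array, and its dimmer probeset was called in both comparisons.

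The remaining plexins PLXNA2, PLXNA4 and PLXNB3 differed by 0.07, 0.22 and 0.05 in cohorts 7a and 7b and were not called. For PLXNA2 this depended on the probeset: another, of nearly the same mean level, had a difference of 0.44 (adjusted limma p = 3.89e-05). PLXNC1 lay between 2.69 and 3.13 in ethanol-drinking animals of cohorts 7a and 7b and between 2.56 and 2.93 in controls, near the lowest values on the array, and was called higher there when no filter was set.

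**Figure D3:**
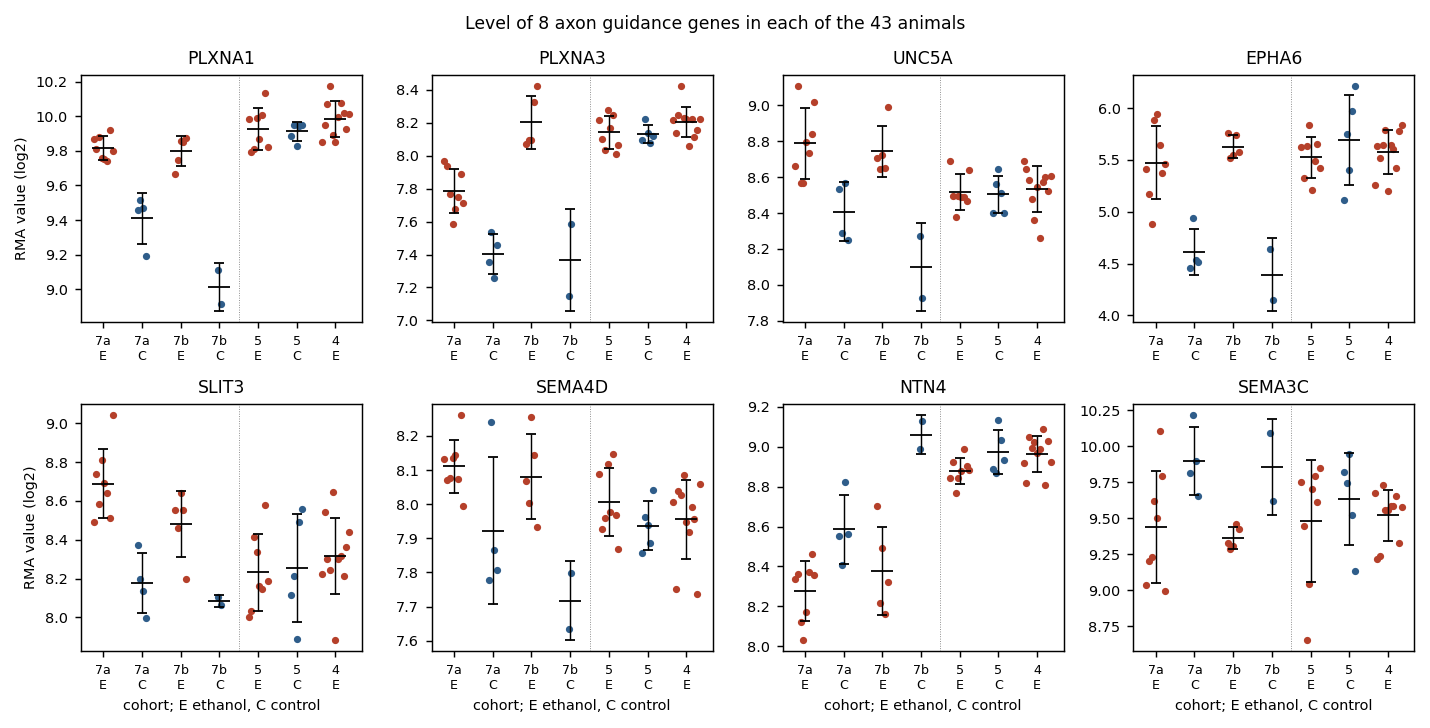
RMA value (log2, y axis) of 8 axon guidance genes in each of the 43 animals by cohort (x axis; E, ethanol-drinking, red; C, control, blue), with mean and SD (bars). The controls of cohorts 7a and 7b lie below the ethanol-drinking animals for PLXNA1, PLXNA3 and UNC5A, and the groups of cohort 5 overlap for all 8 genes.

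Of the EPHA receptors, which mostly bind ephrin-A ligands, EPHA6 had the largest difference of all 61 genes in cohorts 7a and 7b. It ranged over 4.89 to 5.95 (median 5.55) in ethanol-drinking animals and over 4.14 to 4.94 (median 4.53) in controls, so the groups overlapped by 1 control of cohort 7a at 4.94. In cohort 5 the ethanol-drinking animals had 5.21 to 5.84 (median 5.56) and the controls 5.12, 5.40, 5.75, 5.97 and 6.22, with the order of the means turned round. The difference was 0.99 in cohorts 7a and 7b (SE 0.13, 1.99-fold, adjusted limma p = 6.95e-06) and -0.17 in cohort 5 (95% interval -0.50 to 0.16), and the test of the difference gave 1.16 (SE 0.20, adjusted limma p = 3.20e-05). Over all cohorts it was 0.49 (SE 0.13, adjusted limma p = 0.00329), and with the actin value as a covariate 0.40 (adjusted limma p = 0.0537).

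EPHA5, a receptor of ephrin-A ligands, was called lower over all cohorts only. With the actin value as a covariate that call was lost (-0.16, adjusted limma p = 0.135). In cohort 5 it ranged over 9.19 to 9.62 (median 9.40) in ethanol-drinking animals, and was 9.34 to 9.85 (median 9.72) in controls. The difference was -0.24 in cohort 5 (SE 0.08, unadjusted p = 0.00970, adjusted limma p = 0.936), -0.19 in cohorts 7a and 7b (SE 0.10, adjusted limma p = 0.163) and -0.21 over all cohorts (SE 0.07, adjusted limma p = 0.0122). In cohort 7a alone the means differed by -0.01 and in cohort 7b by -0.52. EPHA1, EPHA2, EPHA3 and EPHA8 were not called, with differences over all cohorts of -0.18, 0.00, -0.17 and -0.07. The 3 dimmer probesets of EPHA1 were each called lower over all cohorts, the one furthest from 0 at -0.53 (adjusted limma p = 0.000780).

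EPHA4, a receptor that binds ephrins of both classes, varied between animals far more than any other member. Its SD within cohort and treatment was 1.03 log2 units, against a median of 0.15 for the 61 genes, and it stood at rank 6 of the 13705 genes. In cohort 5 the 8 ethanol-drinking animals ranged over 6.34 to 10.45 (median 8.31), a 17.3-fold span, and the controls had 8.11, 9.16, 9.42, 9.50 and 9.84. In cohorts 7a and 7b, ethanol-drinking animals ranged over 7.83 to 10.33 and controls over 7.66 to 10.03, and cohort 4 over 6.91 to 9.97. The second EPHA4 probeset had the same 4 animals at its low end, 3 of them in cohort 5 and 1 in cohort 4, all ethanol-drinking and from batches 2 and 3. Most animals of these batches drank ethanol, 7 against 1 control in batch 2 and 6 against 2 in batch 3. The ethanol minus control difference was -1.02 in cohort 5 (SE 0.58) and -0.09 in cohorts 7a and 7b (SE 0.37), within the spread of the animals in both, and no comparison called it.

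**Figure D4:**
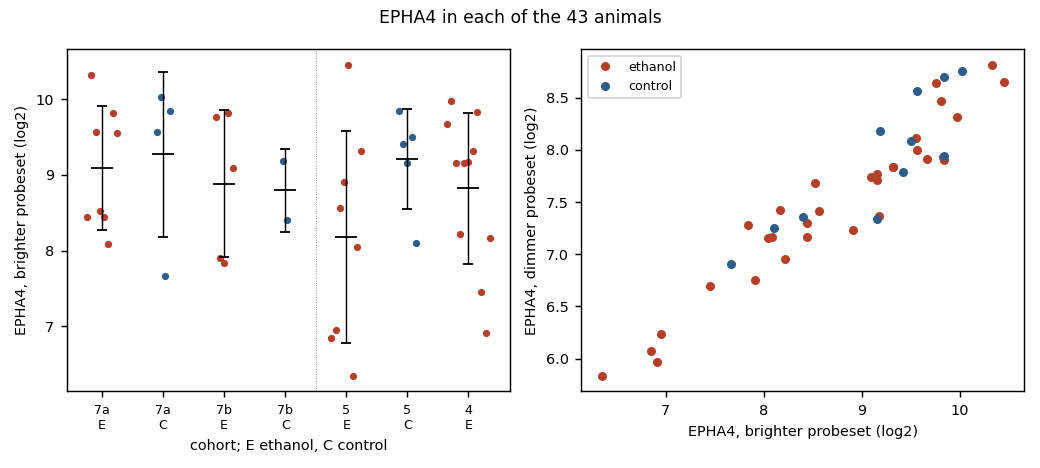
Left, log2 RMA value of the brighter EPHA4 probeset (y axis) in each animal by cohort (x axis; E, ethanol-drinking, red; C, control, blue), with mean and SD (bars). Right, the dimmer probeset (y axis, log2) against the brighter one (x axis, log2) in the 43 animals, where the 4 lowest animals are the same for both.

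Among EPHB receptors, which bind ephrin-B ligands, EPHB6 lacks kinase activity and ranged over 9.04 to 9.72 (median 9.59) in ethanol-drinking animals of cohorts 7a and 7b, against 8.67 to 9.42 (median 9.19) in controls. It was higher by 0.41 there (SE 0.08, adjusted limma p = 0.000390) and by 0.23 over all cohorts (SE 0.06, adjusted limma p = 0.00490), and differed by -0.01 in cohort 5. With the actin value as a covariate EPHB6 was not called, at 0.25 in cohorts 7a and 7b (adjusted limma p = 0.0641) and 0.15 over all cohorts (adjusted limma p = 0.118), nor over all cohorts with batch in place of cohort (0.18, adjusted limma p = 0.0814). EPHB2, known at excitatory synapses, had differences of opposite sign in the 2 parts of the study. In cohorts 7a and 7b it had 5.89 to 6.41 (median 6.06) in ethanol-drinking animals, against 5.53 to 6.06 (median 5.78) in controls, a difference of 0.31 (SE 0.09, adjusted limma p = 0.00897). In cohort 5 ethanol-drinking animals had 5.97 to 6.14 (median 6.06) and controls 6.08 to 6.41 (median 6.29), a difference of -0.19 (SE 0.06, unadjusted p = 0.00813, adjusted limma p = 0.936), and the test of the difference gave 0.50 (SE 0.11, adjusted limma p = 0.00101). EPHB1 and EPHB3 differed by -0.12 and 0.02 over all cohorts and were not called.

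Of the 8 ephrins, 1 was called over all cohorts and 3 in cohorts 7a and 7b, all of them higher, against 13.2% and 14.5% of all genes. EFNA1, a GPI-anchored ligand, averaged 11.63 ± 0.10 in ethanol-drinking animals of cohorts 7a and 7b, against 11.38 ± 0.16 in controls (SD, n = 13 and 6). It was higher there by 0.26 (SE 0.06, adjusted limma p = 0.00179), while its dimmer probeset differed by -0.08 and was not called. EFNB2, a transmembrane ligand, was called in cohorts 7a and 7b at 0.26 (SE 0.07, adjusted limma p = 0.00339) and not over all cohorts (0.11, adjusted limma p = 0.0667). Its values were 9.58 to 9.97 (median 9.84) in ethanol-drinking animals, against 9.41 to 9.73 (median 9.58) in controls. The second EFNB2 probeset was higher by 0.81 there and by 0.42 over all cohorts (adjusted limma p = 0.00139). EFNA4 was called in cohorts 7a and 7b at 0.16 (adjusted limma p = 0.0383), in 10 of the 19 fits that left out 1 array. The other ephrins EFNA2, EFNA3, EFNA5, EFNB1 and EFNB3 had differences of -0.10, 0.08, -0.11, 0.05 and 0.02 over all cohorts, none of them called.

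The secreted class 3 semaphorins went both ways. SEMA3C ranged over 9.0 to 10.11 (median 9.33) in ethanol-drinking animals of cohorts 7a and 7b, against 9.62 to 10.22 (median 9.85) in controls. It was lower by a difference of -0.47 (SE 0.13, adjusted limma p = 0.00658), negative in each of the 4 batches, and its second probeset gave -0.52. In cohort 5 the difference was -0.15 (SE 0.19), and over all cohorts -0.33 (SE 0.11, adjusted limma p = 0.0150). SEMA3B was higher by 0.41 in cohorts 7a and 7b (SE 0.13, adjusted limma p = 0.0181) and by 0.26 over all cohorts (adjusted limma p = 0.0119), with differences of 0.99, 0.03, -0.10 and 0.65 in the 4 batches. SEMA3D was called lower in cohorts 7a and 7b (-0.23, SE 0.08, adjusted limma p = 0.0214) and not over all cohorts (-0.13, adjusted limma p = 0.0524), and with the actin value it was not called in cohorts 7a and 7b (-0.13, adjusted limma p = 0.371). SEMA3A and SEMA3F differed by -0.15 and 0.04 over all cohorts and were not called. A dimmer SEMA3A probeset was called lower over all cohorts (-0.39, adjusted limma p = 0.0159).

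Of the 11 membrane-bound semaphorins, 3, all of class 4, were called higher over all cohorts, against 13.2% of all genes. SEMA4D, the ligand of PLXNB1, ranged over 7.93 to 8.26 (median 8.08) in ethanol-drinking animals of cohorts 7a and 7b, against 7.64 to 8.24 (median 7.80) in controls, of which 1 lay within the range of the ethanol-drinking animals. It was higher by 0.25 there (SE 0.07, adjusted limma p = 0.00766) and by 0.17 over all cohorts (SE 0.05, adjusted limma p = 0.00420), and it kept its call over all cohorts with batch or the actin value in the model and with each array left out. With both together SEMA4D was not called, at 0.13 over all cohorts (adjusted limma p = 0.100) and 0.26 in cohorts 7a and 7b (adjusted limma p = 0.109). SEMA4G was higher by 0.39 in cohorts 7a and 7b (SE 0.09, adjusted limma p = 0.00193), but a second probeset of close mean level was called the other way over all cohorts (-0.11, adjusted limma p = 0.0437). SEMA4B was higher by 0.16 over all cohorts (SE 0.04, adjusted limma p = 0.00497), with differences of 0.20 in cohorts 7a and 7b and 0.10 in cohort 5. Its call in cohorts 7a and 7b held in 11 of 19 fits that left out 1 array. With the actin value SEMA4B was not called, at 0.10 over all cohorts (adjusted limma p = 0.125) and 0.09 in cohorts 7a and 7b (adjusted limma p = 0.547), nor with batch in place of cohort, at 0.10 (adjusted limma p = 0.0554) and 0.15 (adjusted limma p = 0.130). SEMA5A was called in cohorts 7a and 7b alone (0.27, SE 0.09, adjusted limma p = 0.0199), with 0.08 in cohort 7a and 0.63 in cohort 7b. SEMA4F was called by the test of the difference (-0.42, SE 0.15, adjusted limma p = 0.0397), with -0.23 in cohorts 7a and 7b and 0.18 in cohort 5. That call held in 27 of the 43 fits that left out 1 array. SEMA4A, SEMA4C, SEMA5B, SEMA6C, SEMA6D and the GPI-anchored SEMA7A had differences of 0.09, 0.03, 0.01, 0.03, -0.05 and -0.05 over all cohorts, with no call.

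The neuropilins, which bind class 3 semaphorins and pass the signal through plexins, had no member called higher. NRP2 ranged over 5.02 to 5.75 (median 5.55) in ethanol-drinking animals of cohorts 7a and 7b, against 5.43 to 6.17 (median 5.74) in controls, with overlapping groups. It was lower over all cohorts (-0.19, SE 0.07, adjusted limma p = 0.0307), with -0.26 in cohorts 7a and 7b (adjusted limma p = 0.0518) and -0.10 in cohort 5. With the actin value NRP2 was not called over all cohorts (-0.16, adjusted limma p = 0.166). NRP1, the SEMA3A receptor, differed by 0.04 over all cohorts and by -0.01 in cohorts 7a and 7b (95% interval -0.28 to 0.27).

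Of the 7 Slits and Robos, 3 were called in cohorts 7a and 7b, all higher, against 14.5% of all genes. The secreted ligand SLIT3 ranged over 8.20 to 9.04 (median 8.58) in ethanol-drinking animals, against 8.0 to 8.37 (median 8.12) in controls. Its difference was 0.47 (SE 0.08, 1.39-fold, adjusted limma p = 0.000112), 0.50 for its second probeset, 0.24 to 0.61 within the 4 batches and -0.02 in cohort 5 (95% interval -0.27 to 0.23). SLIT2 had 0.22 in cohorts 7a and 7b (SE 0.08, adjusted limma p = 0.0384) and -0.16 in cohort 5 (SE 0.06, unadjusted p = 0.0207, adjusted limma p = 0.936), and the test of the difference gave 0.38 (SE 0.11, adjusted limma p = 0.00957). Its call in cohorts 7a and 7b held in 9 of 19 fits that left out 1 array. The receptor ROBO2 was higher by 0.27 in cohorts 7a and 7b (SE 0.09, adjusted limma p = 0.0166), at 7.68 to 8.36 in ethanol-drinking animals and 7.43 to 8.15 in controls. SLIT1, ROBO1, ROBO3 and the endothelial ROBO4 differed by 0.24, 0.10, 0.08 and -0.10 there and were not called.

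Over all cohorts, 2 of 4 netrins were called lower and 2 of 3 UNC5 receptors higher, against 20% lower and 13.2% higher of all genes. NTN4, a netrin of basement membranes, ranged over 8.03 to 8.70 (median 8.34) in ethanol-drinking animals of cohorts 7a and 7b, against 8.41 to 9.13 (median 8.69) in controls. The 2 controls of cohort 7b, at 8.99 and 9.13, and 1 control of cohort 7a, at 8.82, lay above all 13 ethanol-drinking animals, and the other 3 controls lay within their range. NTN4 was lower over all cohorts (-0.29, SE 0.06, adjusted limma p = 0.000274) and in cohorts 7a and 7b (-0.44, SE 0.09, adjusted limma p = 0.000635), with 0.04, -0.58, -0.51 and -0.80 in the 4 batches and -0.09 in cohort 5. NTN1, the best known axon attractant of the family, was lower over all cohorts by a difference of -0.18 (SE 0.05, adjusted limma p = 0.00877), with 5.09 to 5.6 (median 5.20) in ethanol-drinking animals of cohorts 7a and 7b, against 5.35 to 5.69 (median 5.49) in controls. With arrays centered on their median, NTN1 was not called in either comparison. NTN3 and NTN5 differed by 0.04 and 0.09 over all cohorts, with no call.

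UNC5A, a repulsive netrin receptor, ranged over 8.57 to 9.11 (median 8.72) in ethanol-drinking animals of cohorts 7a and 7b, against 7.93 to 8.57 (median 8.28) in controls. The groups did not overlap, although the lowest ethanol-drinking animal and the highest control met at 8.57. Its difference was 0.47 (SE 0.09, 1.39-fold, adjusted limma p = 0.000308), 0.27 to 0.66 within the 4 batches and 0.01 in cohort 5 (95% interval -0.12 to 0.14), and 0.28 over all cohorts (SE 0.07, adjusted limma p = 0.00133). UNC5B was higher by 0.21 over all cohorts (SE 0.07, adjusted limma p = 0.0164), with 0.90 in 1 batch and 0.01 to 0.18 in the other 3 of cohorts 7a and 7b. UNC5C differed by 0.02 over all cohorts and was not called. DCC stayed at 2.97 to 3.37 in ethanol-drinking animals and 3.04 to 3.45 in controls of cohorts 7a and 7b, under the filter. PLXNA1, PLXNA3 and UNC5A were thus the 3 members whose groups did not overlap in cohorts 7a and 7b with ethanol above (4.92%, against 2.28% of all genes), and none lay below, against 2.42% of all genes.

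UNC50 and UNC5CL matched by symbol but are no netrin receptors. UNC50, a membrane protein of the Golgi whose worm counterpart is needed for nicotinic acetylcholine receptors, was lower, with a difference of -0.50 in cohorts 7a and 7b (SE 0.08, adjusted limma p = 6.27e-05) and of -0.29 over all cohorts (adjusted limma p = 0.000359). Its values were 9.65 to 10.27 (median 9.99) in ethanol-drinking animals, against 10.12, 10.14, 10.16 and 10.23 in controls of cohort 7a and 10.78 and 11.05 in those of cohort 7b. All 3 UNC50 probesets were called lower in cohorts 7a and 7b. UNC5CL differed by 0.04 over all cohorts. Without UNC50, 5 members were called lower over all cohorts and 4 in cohorts 7a and 7b.

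**Figure D5:**
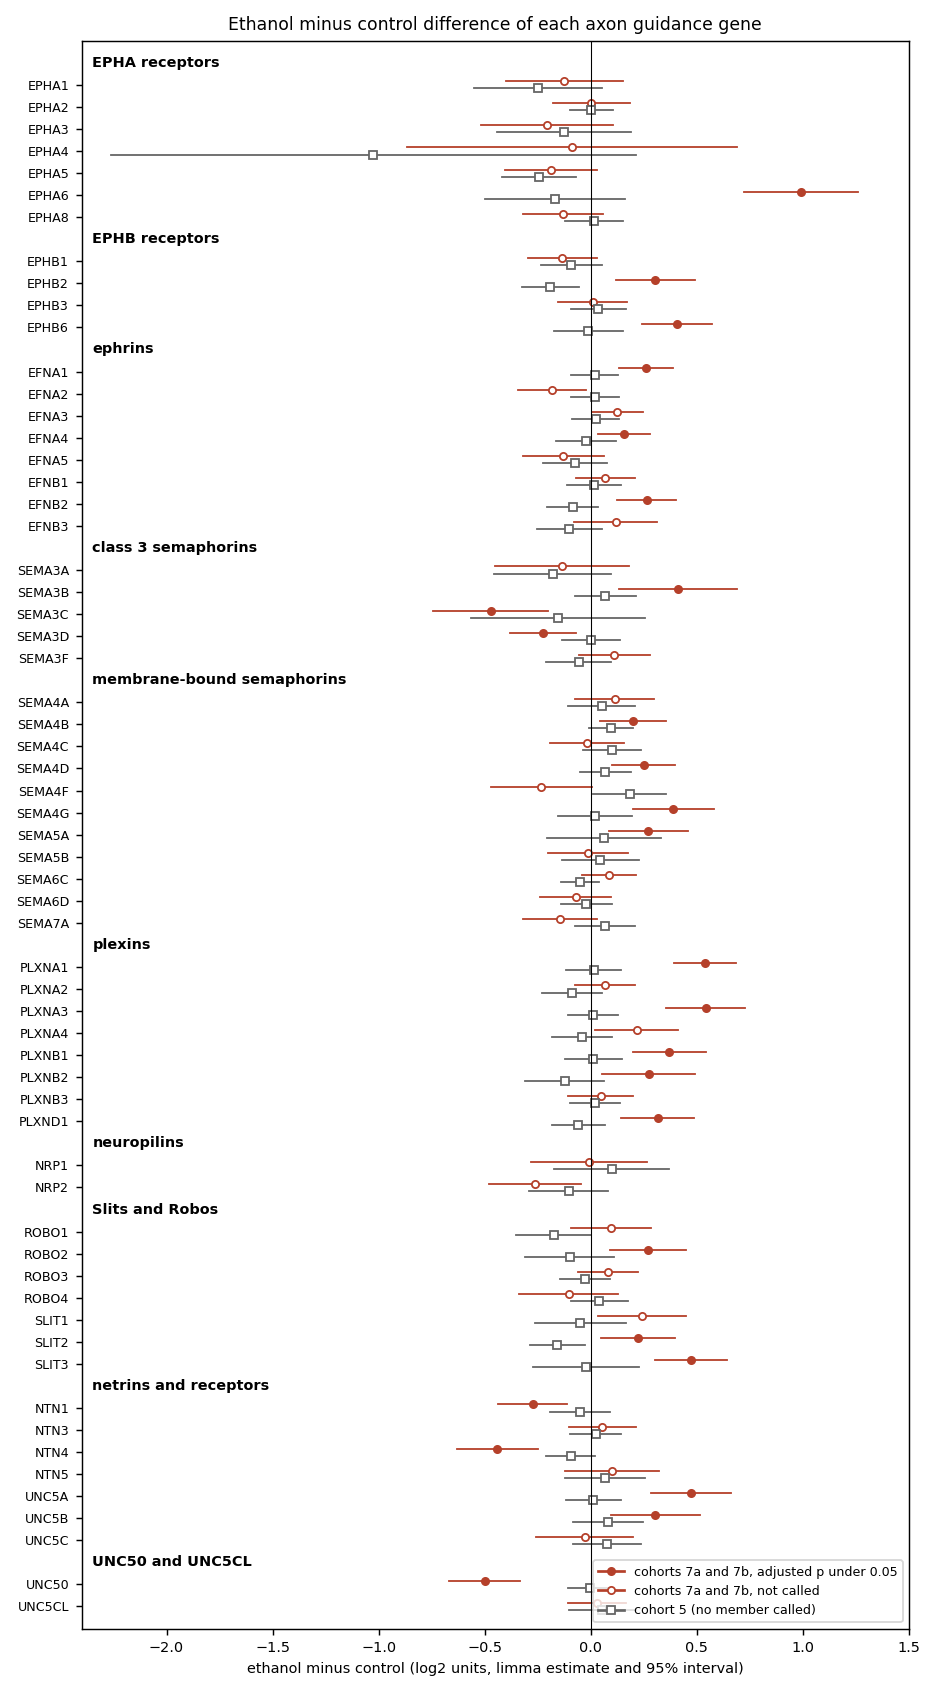
Ethanol minus control difference (x axis, log2 units; points are limma estimates and lines 95% intervals) of the 61 axon guidance genes by family (y axis), in cohorts 7a and 7b (red circles, filled where the adjusted p was under 0.05) and in cohort 5 (gray squares). The 5 filled plexins lie to the right of 0, and no gene was called in cohort 5.

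Several probesets of a gene did not always agree. Of the 20 members called over all cohorts, 10 had other probesets above the filter, 12 in all: 5 were called in the same direction, 4 had the same sign without a call, 2 the opposite sign without a call, and 1, of SEMA4G, was called the opposite way. In cohorts 7a and 7b, 8 of 15 such probesets were called in the same direction and none in the opposite one. The probesets with the most varied values gave nearly the same counts, 13 higher and 6 lower over all cohorts, against 1539 and 3089 of all genes. However, EFNA1, EPHA5, PLXNA1, PLXNA3 and UNC50 were then not called, and EFNB1, EFNB2, EPHA1 and SEMA3A were.

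Of 62 listed genes that work with these receptors (co-receptors, adaptors and other effectors), 49 had a probeset, and all of them passed the filter. Over all cohorts 16 were higher (32.7%, against 13.2% of all genes) and 4 lower (8.16%, against 20%), with a median difference of 0.07. Cohorts 7a and 7b had 18 higher (36.7%, against 14.5% of all genes) and 6 lower (12.2%, against 25.2%), with a median of 0.16. None was called in cohort 5. The 4 of lowest p over all cohorts are given here with their values in cohorts 7a and 7b. NCK1, an adaptor that links Eph receptors and DCC to actin, was lower by a difference of -0.62 (SE 0.10, adjusted limma p = 7.84e-05), at 6.73 to 7.56 in ethanol-drinking animals and 7.47 to 8.10 in controls. L1CAM, an adhesion molecule that acts with neuropilin, was higher by 0.46 (SE 0.08, adjusted limma p = 0.000121). NEO1, the DCC relative neogenin, was higher by 0.40 (SE 0.07, adjusted limma p = 0.000177). MICAL1, an enzyme that oxidizes actin downstream of plexins, was higher by 0.47 (SE 0.08, adjusted limma p = 0.000162), and its groups did not overlap, at 6.36 to 7.04 in ethanol-drinking animals and 6.18 to 6.35 in controls. In cohorts 7a and 7b, PAK3 (0.36, adjusted limma p = 7.91e-05) and CRMP1 (0.53, adjusted limma p = 9.06e-05) had a lower p than L1CAM, NEO1 and MICAL1. Their groups did not overlap either.

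In bulk cortex, fewer cells of a type and less RNA per cell cannot be told apart. Of 52 listed cell type markers, 36 had a probeset and all passed the filter, so no listed type was without a measured marker. In cohorts 7a and 7b, 4 markers were called higher (11.1%, against 14.5% of all genes) and 10 lower (27.8%, against 25.2%), and in cohort 5 none. Of 6 microglial markers, 3 were lower in cohorts 7a and 7b: P2RY12 (-1.03), AIF1 (-0.73) and CX3CR1 (-0.38). The other 3 were not called: C1QA (0.20), CSF1R (0.08) and TMEM119 (-0.08). The mean log2 level of the 6 ranged over 6.90 to 7.33 in ethanol-drinking animals and 7.29 to 7.64 in controls, and in cohort 5 over 7.07 to 7.48 in ethanol-drinking animals and 7.11 to 7.27 in controls. The 4 meningeal markers, of which 2 were lower, averaged 7.14 to 8.26 in ethanol-drinking animals and 7.69 to 8.16 in controls, and the 5 endothelial ones, of which 1 was lower, 6.91 to 7.49 in ethanol-drinking animals and 7.08 to 7.59 in controls. Among 4 markers of inhibitory neurons, GAD2, a GABA-synthesizing enzyme, was higher by 1.76 in cohorts 7a and 7b (adjusted limma p = 2.51e-08), and PVALB (-0.64) and VIP (-0.59) were lower. The other, GAD1, was not called (-0.001, adjusted limma p = 0.990). The 4 averaged 8.77 to 9.27 in ethanol-drinking animals and 8.58 to 9.15 in controls. Of 3 markers of excitatory neurons, SLC17A7 was higher (0.24), NEUROD6 lower (-0.25) and CAMK2A not called (0.19). Of 4 astrocytic ones SLC1A2 was higher (0.42), and GFAP (0.29), ALDH1L1 (0.06) and SLC1A3 (0.03) were not called. The 4 general neuronal markers, with TUBB3 higher (0.20) and ENO2 lower (-0.29), averaged 11.41 to 11.62 in ethanol-drinking animals and 11.38 to 11.64 in controls. The part of these cell types in the differences of the axon guidance genes was not tested.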

How the data were processed

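Total RNA of medial PFC was hybridized to 1-color Affymetrix Rhesus arrays, 1 per animal. The deposited values are log2 values that the authors made with RMA in the affy package (versions not given in the sources used here), quantile-normalized over all 43 arrays. They are not adjusted for batch. The 8 processing batches were recovered from the study's batch-adjusted values of 912 probesets, since 3 arrays of 1 batch lie on a straight line in each probeset (tolerance 0.001). Of 52865 probesets, 24956 had 1 gene symbol in the platform annotation, 361 several, 27449 none and 99 were controls. With the filter, 24151 annotated probesets were tested with limma 3.58.1 in R 4.3.3 (lmFit and eBayes, cohort as a fixed term, Benjamini-Hochberg over all of them), checked on simulated data. Cohort 4 has no control and adds only to the estimate of the spread. Groups and animal numbers come from the labels. Values were given for every member called over all cohorts, and for the 6 of lowest p in each of the other comparisons among those not called there, and the remaining members were named in their families. Of the related genes, the 4 of lowest p over all cohorts were named, and also PAK3 and CRMP1. Members, lists and tests were chosen with earlier results of these data known. Precision is limited by how few controls there were. Intake and RNA integrity numbers were not used here.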

Additional observations from a re-analysis of the deposited data

Results flagged for a closer look

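The ethanol effect differed between cohorts 7a and 7b and cohort 5, by the limma test of the difference itself, for 18 of the 61 genes. On the log2 scale, cohorts 7a and 7b minus cohort 5, the difference was largest for EPHA6, at 1.16. Among plexins it was 0.53 for PLXNA1, 0.53 for PLXNA3, 0.36 for PLXNB1, 0.40 for PLXNB2 and 0.38 for PLXND1. Among Eph receptors and ephrins it was 0.50 for EPHB2, 0.42 for EPHB6, 0.24 for EFNA1 and 0.35 for EFNB2. For Slit and Robo genes it was 0.49 for SLIT3, 0.38 for SLIT2 and 0.37 for ROBO2. It was 0.46 for UNC5A and 0.37 for SEMA4G. For 3 genes it was negative, at -0.35 for NTN4, -0.49 for UNC50 and -0.42 for SEMA4F. Cohort 5 differs from cohorts 7a and 7b in processing and extraction kit as well as in animals, so these cannot be told apart.

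In 4 of 150 groups of 4 to 10 animals, over the 30 genes looked at, 1 animal lay far from the others of its group. Chance flags about 1 in 20 groups. In controls of cohort 7a, control 26 had 4.94 for EPHA6, with the next at 4.54, and control 27 had 5.28 for SEMA4F, with the next at 5.75. In ethanol-drinking animals of cohort 7b, animal 42 had 8.18 for SEMA3D, with the next at 8.49, and animal 43 had 8.99 for UNC5A, with the next at 8.72.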

How the results depend on the processing

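Counts of called members, higher then lower, changed with the setting. Over all cohorts (14 and 6) they were 7 and 3 with no term for cohort, 9 higher with batch in place of cohort, 6 and 2 with the actin 3′ minus 5′ value as a covariate, and 3 lower at an adjusted p of 0.01 or under. In that order, the 13705 genes gave 855 and 1415, 1279 higher, 1082 and 1173, and 1701 lower. In cohorts 7a and 7b (21 and 5) they were 2 lower with the actin value, 3 lower with arrays centered on their median, and 13 higher at an adjusted p of 0.01 or under. All genes gave 1719 lower, 2303 lower and 1393 higher in these settings. In the test of the difference (15 and 3), 1 was lower with arrays centered and 1 at an adjusted p of 0.01 or under, against 1494 and 1404 of all genes. Chosen after seeing the data, batch together with the actin value gave 2 and 0 over all cohorts, 5 and 0 in cohorts 7a and 7b, and 9 and 1 for the difference. All genes gave 530 and 503, 727 and 1175, and 812 and 1511. Batch alone gave 1 lower for the difference, against 2097 of all genes, and cohort 7a alone gave 8 and 2, against 1116 and 1647. With 1 array left out, the counts were 12 to 16 higher and 4 to 7 lower over all cohorts, 13 to 21 and 5 to 7 in cohorts 7a and 7b, 12 to 17 and 2 to 4 for the difference, 0 in cohort 5, and 3 to 5 members with no overlap, the 5 without control 26 of cohort 7a. Counts over all genes in these fits are not given here, so the ranges describe the members alone.

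Signs turned for EFNA1 at its probeset of highest SD (-0.0141 over all cohorts and -0.0770 in cohorts 7a and 7b), and over all cohorts for uncalled members: ROBO2 (-0.00296) and SLIT2 (-0.00182) with no term for cohort, SEMA4F with the actin value (0.0137) and with batch and the actin value together (0.0249), and EPHB2 with both together (-0.0187). Intervals are those of the mean ethanol minus control difference, computed from the spread between animals, and do not span the values of single animals. No paired analysis was possible because the labels do not say which control was matched to which ethanol-drinking animal.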
